A study of Homo sapiens with 9 samples.

Results

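The 9 genes HLA-B, HLA-C, HLA-E, HLA-F, B2M, TAP1, TAP2, PSMB8 and PSMB9 encode proteins of class I antigen presentation and peptide processing. They were taken by name from the 58381 genes in each count table, and were matched to the tables by Ensembl identifier. They were followed in EGI-1, an established human cholangiocarcinoma (bile duct cancer) cell line carrying a TET-inducible short hairpin RNA. The groups were GFPsh, a control hairpin, and FOSL1sh3 and FOSL1sh10, hairpins against FOSL1 (the gene of FRA-1, a subunit of the transcription factor AP-1), with 3 libraries each. All groups shared the cell line, doxycycline at 2 ug per ml for 4 days, and 24 hours between seeding and harvest, so no group lacked doxycycline. Nothing in the labels says whether a group was 1 clone or a pool of transduced cells, or whether its 3 libraries came from separate cultures. The p-values therefore measure only the spread between these libraries, which may be technical.

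Class I molecules display short peptides from inside the cell to CD8+ T cells. The proteasome cuts cytosolic proteins into peptides, and the transporter TAP, made of TAP1 and TAP2, carries the peptides into the endoplasmic reticulum. There the heavy chain (HLA-B, HLA-C and their relatives) and the invariant light chain beta-2-microglobulin (B2M) assemble around a peptide. Interferon-gamma and TNF are the classical inducers of the pathway and also of the immunoproteasome subunits PSMB8 and PSMB9, which replace the constitutive subunits PSMB5 and PSMB6. In carcinomas, bile duct cancers included, loss of class I expression is a known route of escape from T cells.

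The classical class I promoters carry a compact array of regulatory motifs upstream of the start site, and the RefSeq promoter windows (GRCh38.p14, from 250 bases before to 50 after the start) let that array be read. A window was found for 8 of the 9 genes, HLA-E being the other, and TAP1 and PSMB8 had 2 windows each. The 5 windows below belong to the genes the results turn on, the heavy chain pair HLA-B and HLA-C, the light chain B2M, and the neighbours TAP1 and PSMB9. They lie at chr6:31357130-31357429 (minus strand, HLA-B), chr6:31272043-31272342 (minus, HLA-C), chr15:44711267-44711566 (plus, B2M), chr6:32853655-32853954 (minus, the TAP1 window with matches) and chr6:32853942-32854241 (plus, PSMB9). Capitals mark matches to an interferon regulatory factor core, an NF-kB consensus or an AP-1 core, on either strand.
HLA-B: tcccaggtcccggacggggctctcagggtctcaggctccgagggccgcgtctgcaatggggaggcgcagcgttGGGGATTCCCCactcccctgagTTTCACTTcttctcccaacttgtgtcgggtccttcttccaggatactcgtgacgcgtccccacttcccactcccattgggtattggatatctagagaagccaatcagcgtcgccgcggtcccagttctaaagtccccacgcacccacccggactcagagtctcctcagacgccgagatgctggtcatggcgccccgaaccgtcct
HLA-C: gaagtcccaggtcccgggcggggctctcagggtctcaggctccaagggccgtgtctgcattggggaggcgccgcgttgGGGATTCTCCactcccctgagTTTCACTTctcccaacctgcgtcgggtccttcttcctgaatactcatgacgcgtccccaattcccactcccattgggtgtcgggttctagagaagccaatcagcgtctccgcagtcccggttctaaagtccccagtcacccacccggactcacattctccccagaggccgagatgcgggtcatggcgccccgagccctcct
B2M: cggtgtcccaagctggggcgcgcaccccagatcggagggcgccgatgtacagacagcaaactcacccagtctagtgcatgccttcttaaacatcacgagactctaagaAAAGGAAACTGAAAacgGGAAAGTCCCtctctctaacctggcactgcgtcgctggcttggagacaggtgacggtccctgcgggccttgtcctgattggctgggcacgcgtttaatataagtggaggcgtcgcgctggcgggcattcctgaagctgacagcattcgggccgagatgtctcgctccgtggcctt
TAP1: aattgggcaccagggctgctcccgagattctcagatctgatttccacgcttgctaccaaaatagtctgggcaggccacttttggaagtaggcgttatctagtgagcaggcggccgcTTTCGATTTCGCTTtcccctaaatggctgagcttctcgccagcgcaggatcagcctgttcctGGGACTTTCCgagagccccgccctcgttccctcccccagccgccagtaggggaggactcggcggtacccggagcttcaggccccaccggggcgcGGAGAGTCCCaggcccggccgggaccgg
PSMB9: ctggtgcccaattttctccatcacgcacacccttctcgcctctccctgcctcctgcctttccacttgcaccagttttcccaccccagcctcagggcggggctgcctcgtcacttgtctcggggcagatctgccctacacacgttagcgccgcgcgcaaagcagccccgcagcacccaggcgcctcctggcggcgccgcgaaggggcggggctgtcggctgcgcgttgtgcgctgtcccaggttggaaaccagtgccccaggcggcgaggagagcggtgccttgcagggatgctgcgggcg

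The interferon regulatory factor core, AANNGAAA, occurred in a window of 7 of these 8 genes, all but PSMB9, and in 22.8% of all 35116 RefSeq promoter windows. The NF-kB consensus occurred in HLA-B, HLA-C, B2M and TAP1, and in 11.3% of all windows. In HLA-B it spanned bases 74 to 84 as 2 overlapping matches and the interferon core bases 96 to 103, counted from 1 at the window's 5′ end. The HLA-C window had the same order, with the NF-kB match at bases 79 to 88 and the interferon core at bases 100 to 107. The AP-1 core TGANTCA was in 0 of the 8 genes' windows and in 7.71% of all windows. The CRE core TGACG was found in 6 of 8 genes (24.6% of all windows), and the CCAAT box, CCAAT, in 6 of 8 (34.6%). Counted by window, as the shares of all windows are, the interferon core was in 7 of 10 and the NF-kB consensus in 4 of 10. The CRE core and the CCAAT box were each in 6 of 10. The starts of TAP1 and PSMB9 were 488 bases apart and diverged, and their windows shared 13 bases. The interferon core matches of TAP1, at -134 to -121 from its start, lie between these starts and outside the PSMB9 window. A match describes letters in these windows and is not a measured binding site.

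**Figure D1:**
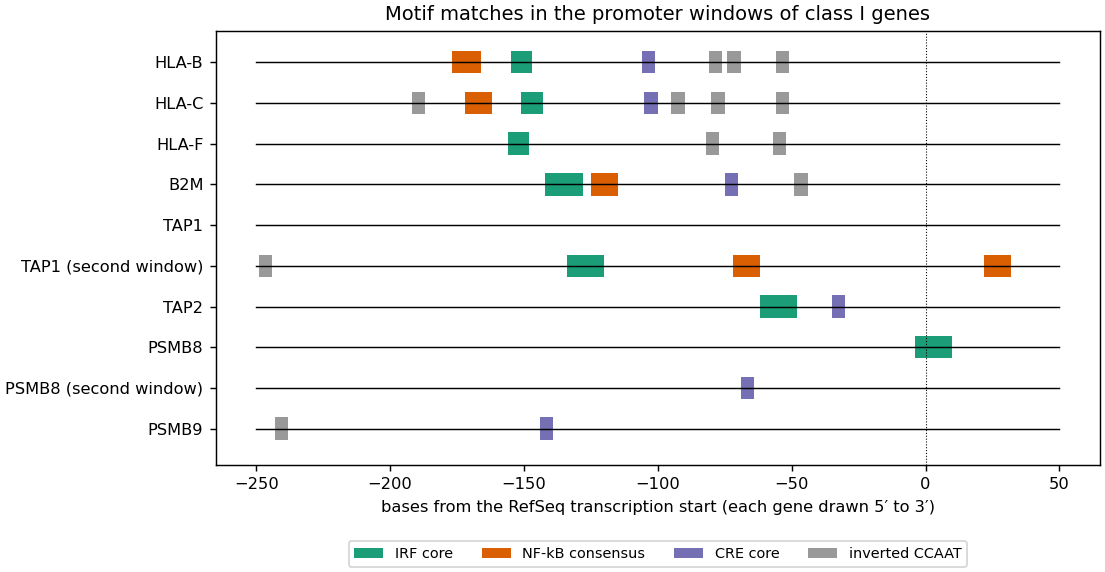
Motif matches in the RefSeq promoter windows of 8 class I genes, by distance in bases from the transcription start. Coloured blocks are matches on either strand to the 4 motifs with a match, and HLA-B and HLA-C show the same order of NF-kB consensus, interferon core and CRE core.

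FOSL1 was measured at 303, 257 and 182 CPM in GFPsh replicates 1, 2 and 3. In the FOSL1sh3 libraries it read 72.3, 70.3 and 44.9 CPM, and in the FOSL1sh10 libraries 70.9, 57.1 and 65.8 CPM. CPM stands for counts put on one library size with TMM factors, and values below are listed in replicate order. Each hairpin library was below each control library, and edgeR's quasi-likelihood test gave -1.98 for FOSL1sh3 (SE 0.198, adjusted p = 1.2e-05) and -1.94 for FOSL1sh10 (SE 0.197, adjusted p = 1.03e-05) as log2 fold changes. Library totals ranged from 6893026 to 10604251 counts, and 12814 genes passed the expression filter and were tested. A gene was called at an adjusted p under 0.05 over all 12814. All 9 class I genes had counts in every library and passed the filter.

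With FOSL1sh3, 2 of the 9 class I genes rose, HLA-B and HLA-C, against 5.21% of all tested genes called higher. With FOSL1sh10, 4 rose, HLA-B, HLA-C, HLA-F and PSMB9, against 3.13% of all tested genes called higher. No class I gene was called lower by edgeR in either comparison, where 5.65% and 2.15% of all tested genes were. At an unadjusted p under 0.05 the counts of class I genes were 2 higher and 0 lower with FOSL1sh3 and 6 higher and 0 lower with FOSL1sh10, where 26.9% and 19.4% of all tested genes passed in either direction. DESeq2 called 2 higher and 5 higher, and again 0 lower. The median log2 fold change of the 9 genes was 0.10 with FOSL1sh3 and 0.49 with FOSL1sh10, beside 0.0069 and 0.0016 over all tested genes. Both comparisons share the GFPsh libraries. For the mean of both hairpins against GFPsh, 3 genes rose, HLA-B, HLA-C and PSMB9, where 3.25% of all tested genes were called higher.

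**Figure D2:**
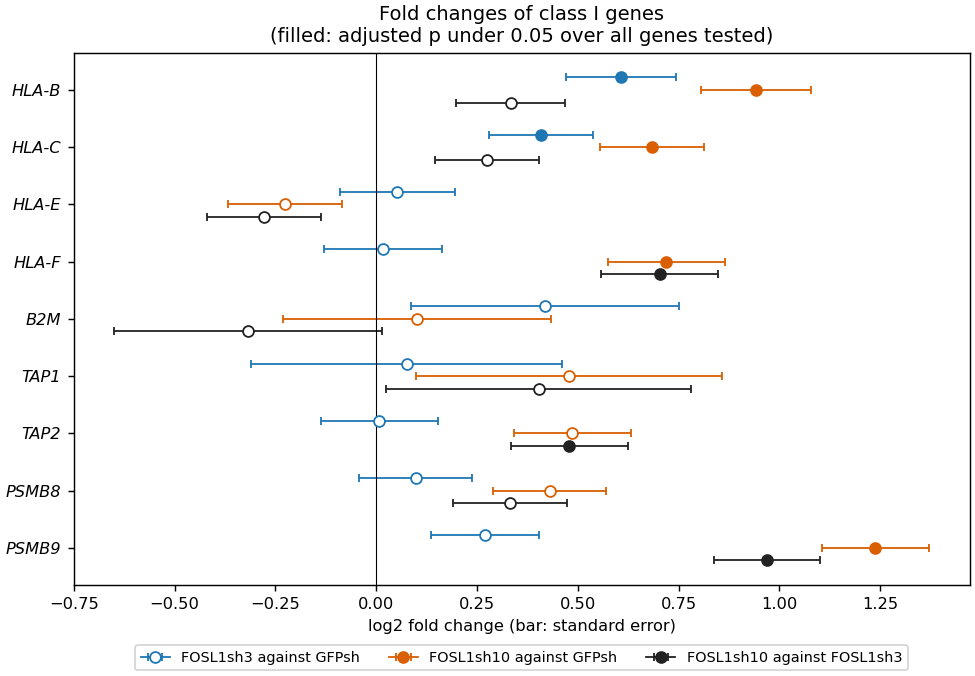
Log2 fold change of each class I gene from the fit of 9 libraries, with its standard error, for each hairpin against GFPsh and for FOSL1sh10 against FOSL1sh3. Filled points passed an adjusted p of 0.05, and PSMB9 with FOSL1sh10 lies farthest to the right at 1.24.

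HLA-B encodes one of the classical heavy chains that present peptide to CD8+ T cells. Its level was 324, 268 and 319 CPM in GFPsh, 473, 415 and 499 CPM with FOSL1sh3, and 552, 585 and 612 CPM with FOSL1sh10. The 3 groups did not overlap, GFPsh being lowest and FOSL1sh10 highest. The log2 fold change was 0.61 with FOSL1sh3 (SE 0.136, adjusted p = 0.00925, a 1.52-fold rise) and 0.94 with FOSL1sh10 (SE 0.137, adjusted p = 0.000309, 1.92-fold). FOSL1sh10 exceeded FOSL1sh3 by 0.33 on the log2 scale, a difference that did not pass the test (edgeR, SE 0.135, adjusted p = 0.114).

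HLA-C, a classical heavy chain that also serves as a ligand of killer cell receptors on NK cells, was at 251, 214 and 221 CPM in GFPsh. The FOSL1sh3 libraries read 294, 325 and 291 CPM, and the FOSL1sh10 libraries 380, 357 and 365 CPM. Again no library of one group fell within the range of another. The rise was called with FOSL1sh10 (log2 0.68, SE 0.13, adjusted p = 0.00333). With FOSL1sh3 the log2 fold change of 0.41 (SE 0.129) was just inside the threshold, at an adjusted p of 0.0491. That call was lost in 14 of the 17 other settings tried, those without any 1 of the 9 libraries included, where the adjusted p reached 0.16 and the log2 fold change ranged from 0.30 to 0.49. HLA-B and HLA-C are close relatives: 2.88% of the 50-base words in the last 500 bases of each main transcript also occur in the other gene, so a few reads could not be assigned to one of them.

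HLA-F, a class Ib heavy chain of low polymorphism, was at 50.6, 52.9 and 43.5 CPM in GFPsh and at 56.7, 48.8 and 43.1 CPM with FOSL1sh3. With FOSL1sh10 it was at 72.6, 85.9 and 83.4 CPM. The 3 FOSL1sh10 libraries were above the other 6, while GFPsh and FOSL1sh3 overlapped. Against GFPsh the log2 fold change was 0.72 with FOSL1sh10 (edgeR, SE 0.145, adjusted p = 0.00532) and 0.02 with FOSL1sh3 (95% interval -0.27 to 0.30). In the HLA-F transcript 51.4% of the last 500 bases lie in exons of HLA-F-AS1 or RPL23AP1. By the command in the file headers, counting was unstranded and did not assign a read to several genes. Reads in those bases were thus left out of the HLA-F count.

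HLA-E, the class Ib heavy chain that presents leader peptides of other class I chains to NK cell receptors, did not pass the test in any comparison. GFPsh libraries read 346, 357 and 380 CPM, FOSL1sh3 libraries 327, 348 and 449 CPM, and FOSL1sh10 libraries 307, 291 and 329 CPM. Each FOSL1sh10 library was below each GFPsh library, as were those of 13% of all tested genes. The log2 fold change was -0.23 with FOSL1sh10 (95% interval -0.50 to 0.05, adjusted p = 0.424 by edgeR) and 0.05 with FOSL1sh3 (-0.23 to 0.33, adjusted p = 0.849).

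**Figure D3:**
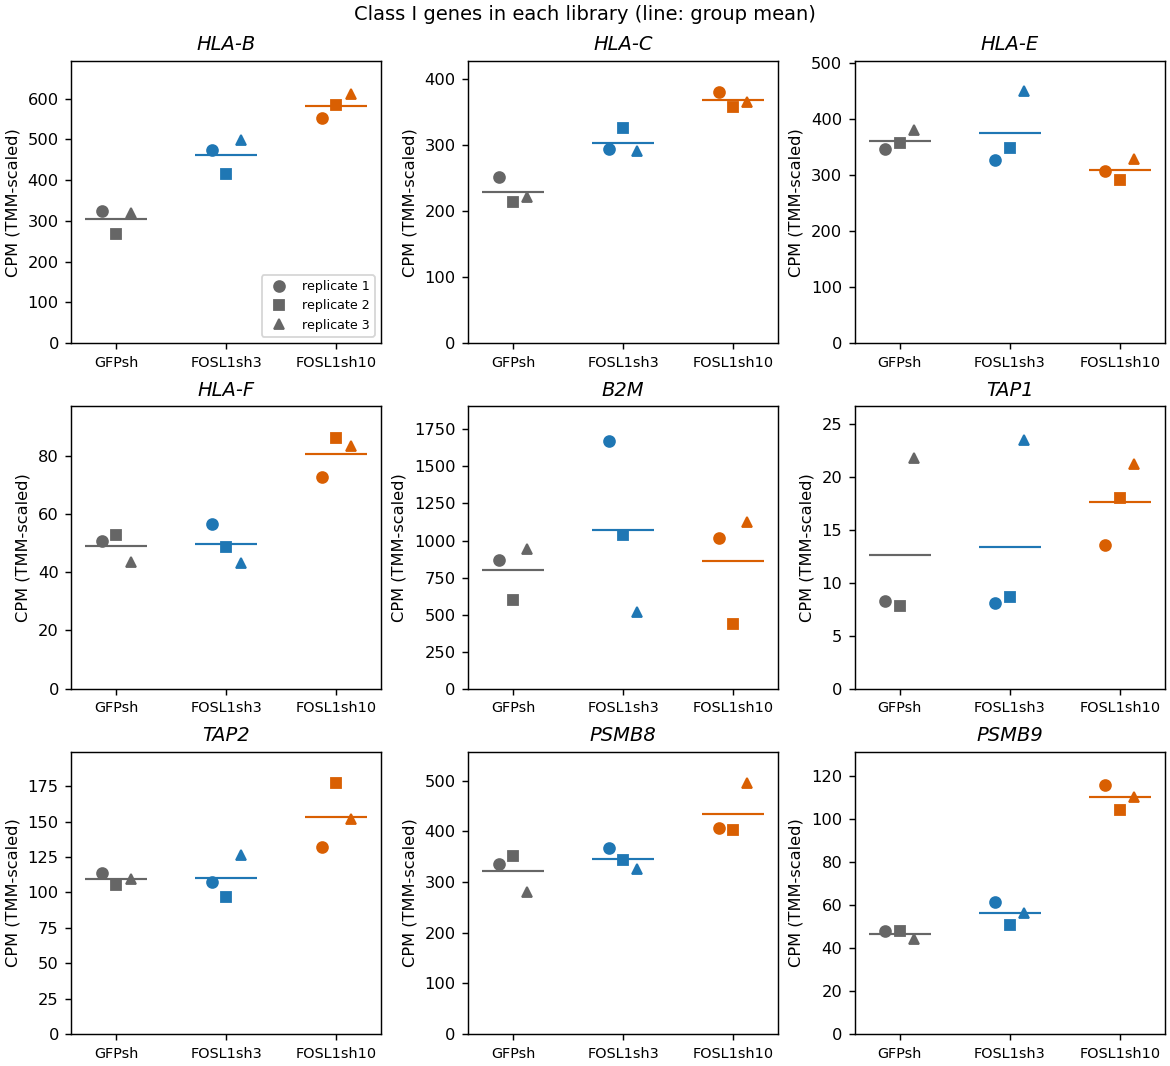
CPM of the 9 class I genes in each of 9 libraries, with 1 panel and its own axis from 0 per gene, marker shapes for replicates and a line at the group mean. HLA-B and HLA-C step up from GFPsh to FOSL1sh3 to FOSL1sh10 without overlap, PSMB9 and HLA-F stand apart with FOSL1sh10, and B2M and TAP1 scatter within groups.

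B2M, the light chain that every classical class I molecule needs, showed no difference beyond its spread. Its level was 871, 596 and 942 CPM in GFPsh, 1670.5, 1035 and 516 CPM with FOSL1sh3, and 1020.1, 438 and 1127 CPM with FOSL1sh10. The lowest and the highest of the 9 libraries both belonged to hairpins against FOSL1. Relative to GFPsh the log2 fold change was 0.42 with FOSL1sh3 (95% interval -0.23 to 1.07, adjusted p = 0.451 by edgeR) and 0.10 with FOSL1sh10 (-0.55 to 0.75, adjusted p = 0.91). The HLA-B change of 0.61 with FOSL1sh3 lies inside the B2M interval for that hairpin, and the HLA-B change of 0.94 with FOSL1sh10 lies above the B2M interval for the other. B2M is not shown to have stayed level with either. Its pooled within-group SD was 0.686 on the log2 scale, above that of 99.1% of the 216 tested genes of like count. The last 500 bases of its transcript have 37.8% G and C, against a median of 43% over tested genes. Taking out a smooth trend on this GC content left its SD at 0.322 in GFPsh, 0.806 with FOSL1sh3 and 0.77 with FOSL1sh10, from 0.352, 0.853 and 0.75.

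TAP1 and TAP2 form the peptide transporter, and their genes lie beside PSMB8 and PSMB9 in a stretch of 37753 bases of chromosome 6. TAP2 was at 114, 105 and 110 CPM in GFPsh and at 108, 96.8 and 126 CPM with FOSL1sh3. It was at 132, 177 and 152 CPM with FOSL1sh10, where each library exceeded all 6 others. Against GFPsh the FOSL1sh10 difference of 0.49 (SE 0.145) missed the threshold in this fit (edgeR, adjusted p = 0.0587). With FOSL1sh3 the log2 fold change was 0.01 (95% interval -0.28 to 0.29).

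TAP1 was at 8.28, 7.77 and 21.7 CPM in GFPsh, 8.11, 8.66 and 23.4 CPM with FOSL1sh3, and 13.6, 18.0 and 21.2 CPM with FOSL1sh10. Replicate 3 was the highest library of every group, and the groups overlapped. The log2 fold changes of 0.08 with FOSL1sh3 (95% interval -0.68 to 0.83) and 0.48 with FOSL1sh10 (-0.26 to 1.22) were not called (edgeR, adjusted p = 0.926 and 0.546). In the TAP1 transcript 75.8% of the last 500 bases lie in exons of the antisense gene PSMB8-AS1. Libraries of this kind tag transcripts near their 3′ ends, and reads in overlapping exons were left out, so the TAP1 count is uncertain. PSMB8-AS1 was at 1.52, 5.51 and 5.40 CPM in GFPsh, 6.47, 3.17 and 2.29 CPM with FOSL1sh3 and 7.42, 7.24 and 9.27 CPM with FOSL1sh10, and was not called (edgeR, adjusted p = 0.186 with FOSL1sh10).

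PSMB9 encodes the immunoproteasome subunit that replaces PSMB6, and with FOSL1sh10 it had the largest rise of the 9 genes. It was at 48.0, 47.9 and 44.1 CPM in GFPsh, 61.3, 50.9 and 56.4 CPM with FOSL1sh3, and 116, 104 and 110.3 CPM with FOSL1sh10. The 3 groups did not overlap, and the step to FOSL1sh10 was the larger one. The log2 fold change with FOSL1sh10 was 1.24 (SE 0.133, adjusted p = 1.8e-05 by edgeR, 2.36-fold). With FOSL1sh3 it was 0.27 (SE 0.133) and was not called (edgeR, adjusted p = 0.203).

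PSMB8, which replaces PSMB5, was at 335, 352 and 281 CPM in GFPsh, 367, 343 and 326 CPM with FOSL1sh3, and 406, 402 and 496 CPM with FOSL1sh10. The FOSL1sh10 libraries were above all others, yet the log2 fold change of 0.43 (SE 0.14) did not pass the test (edgeR, adjusted p = 0.0845). With FOSL1sh3 it was 0.10 (95% interval -0.18 to 0.37). Groups that did not overlap, with the hairpin higher, were counted for 3 class I genes with FOSL1sh3 (HLA-B, HLA-C and PSMB9) and for 6 with FOSL1sh10, TAP2 and PSMB8 included. Over all tested genes the same pattern held for 14.7% and 14.3%.

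The constitutive partners did not pass the test: PSMB5, PSMB6 and PSMB7 had log2 fold changes between -0.05 and 0.15 against GFPsh. A ratio of counts within a library does not depend on scaling between libraries, and its change, not its level, can be read. The PSMB9 to PSMB6 ratio was 0.160, 0.153 and 0.142 in GFPsh, 0.198, 0.176 and 0.158 with FOSL1sh3, and 0.344, 0.309 and 0.315 with FOSL1sh10. It was 0.152 ± 0.00905 (SD, n = 3) in GFPsh and 0.323 ± 0.0186 (SD, n = 3) with FOSL1sh10. On the log2 scale the difference was 1.09, with an exact permutation p = 0.1 (two-sided), the smallest that 3 against 3 allows. With FOSL1sh3 the difference was 0.22 (exact permutation p = 0.2).

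The PSMB8 to PSMB5 ratio was 1.73, 1.76 and 1.64 in GFPsh, 1.88, 1.97 and 1.77 with FOSL1sh3, and 2.27, 2.11 and 2.73 with FOSL1sh10. The groups did not overlap, and the differences from GFPsh were 0.13 and 0.46 on the log2 scale, each at the smallest exact permutation p of 0.1. PSMB10, which replaces PSMB7, had 11 to 30 counts per library. Its ratio to PSMB7 was 1.08 higher on the log2 scale with FOSL1sh10 (exact permutation p = 0.1) and 0.38 higher with FOSL1sh3 (p = 0.9, exact), where without FOSL1sh3 replicate 2 it was -0.16. In PSMB10 100% of the last 500 bases lie in exons of the overlapping gene AC040162.1. Reads there were left out, so its counts are uncertain. Adjusted over the 6 ratio tests, the p-values ran from 0.15 to 0.9, so none could pass 0.05 in this design.

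**Figure D4:**
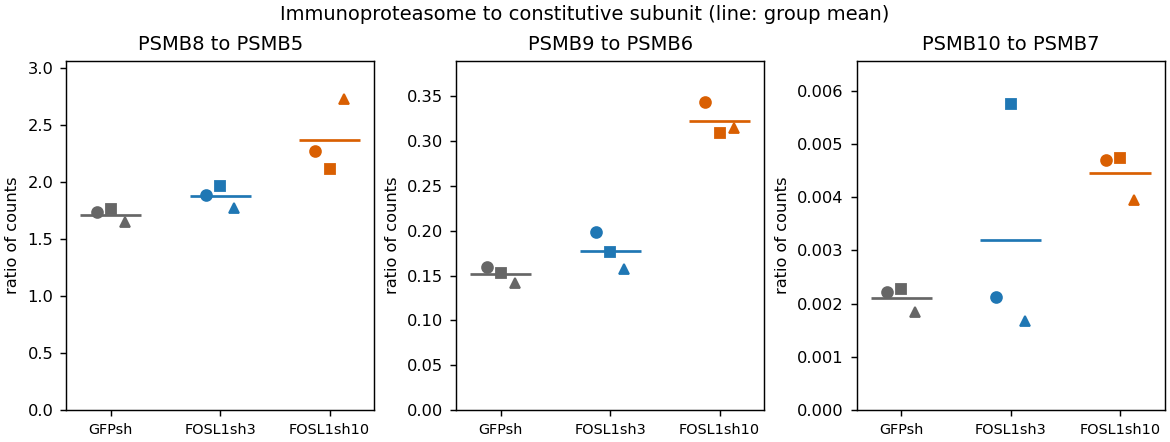
Ratio of the counts of each immunoproteasome subunit to its constitutive partner in each library, on a linear axis from 0, with a line at the group mean and the same marker shapes for replicates 1 to 3 (circle, square, triangle). The PSMB9 to PSMB6 ratio stands apart with FOSL1sh10, with a group mean of 0.323 against 0.152 in GFPsh.

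The hairpins were also compared with each other, where FOSL1 itself was not called (edgeR, adjusted p = 0.9, log2 difference 0.05, 95% interval -0.33 to 0.43, FOSL1sh10 minus FOSL1sh3). HLA-F, TAP2 and PSMB9 were higher with FOSL1sh10, 3 of the 9 genes, where 7% of all tested genes were called higher, and 0 of the 9 were lower by edgeR (5.74% of all tested genes). The log2 difference was 0.70 for HLA-F (SE 0.145, adjusted p = 0.00406), 0.48 for TAP2 (SE 0.145, adjusted p = 0.0374) and 0.97 for PSMB9 (SE 0.132, adjusted p = 0.000151), by edgeR. For HLA-F and TAP2 the FOSL1sh3 libraries overlapped GFPsh, and the difference lay with FOSL1sh10. For PSMB9 the FOSL1sh3 libraries were above GFPsh and below FOSL1sh10. At an unadjusted p under 0.05, 6 class I genes were higher with FOSL1sh10 and 0 lower (28% of all tested genes in either direction), and DESeq2 called 3 higher and 0 lower. The same 6 (HLA-B, HLA-C, HLA-F, TAP2, PSMB8 and PSMB9) had every FOSL1sh10 library above every FOSL1sh3 library, as did 15.9% of all tested genes. The TAP2 call was lost in 6 of the 17 other settings, among them those without GFPsh replicate 1, FOSL1sh3 replicate 1 or 2, or FOSL1sh10 replicate 2 or 3, with an adjusted p of up to 0.223. With library totals in place of TMM scaling the median of all genes shifted to 0.171, and HLA-B, HLA-C and PSMB8 were then called as well, making 6. Among all genes 2192 were then called, 82.4% of them higher, against 1633 and 54.9% with TMM scaling.

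HLA-G, a further class Ib heavy chain, was not called in any comparison (edgeR).

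In the peptide loading complex and its chaperones, TAPBP was the single gene of 6 that rose with either hairpin. It encodes tapasin, which bridges the heavy chain to TAP. TAPBP was at 101, 118 and 105 CPM in GFPsh, 127, 161 and 185 CPM with FOSL1sh3 and 172, 139 and 196 CPM with FOSL1sh10, with both hairpin groups above GFPsh. The log2 fold change was 0.55 with FOSL1sh3 (SE 0.161, adjusted p = 0.0351) and 0.65 with FOSL1sh10 (SE 0.161, adjusted p = 0.0225), by edgeR. The FOSL1sh3 call was lost without any 1 GFPsh library or FOSL1sh3 replicate 2 or 3 (adjusted p up to 0.138), and the FOSL1sh10 call without GFPsh replicate 1 or 3 or FOSL1sh10 replicate 1 or 3 (up to 0.139). Between the hairpins, the chaperones CANX (log2 0.49) and PDIA3 (0.56) were higher with FOSL1sh10 and the folding sensor UGGT1 was lower (-0.74), with edgeR adjusted p = 0.0302, 0.0357 and 0.00233. The first 2 of these calls were each lost without any 1 of 4 or 5 libraries, FOSL1sh10 replicates 2 and 3 among them.

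The peptide trimming enzymes ERAP1 and ERAP2 were not called with either hairpin by edgeR or DESeq2, and ERAP1 with FOSL1sh10 was the single one at an unadjusted p under 0.05. Among 8 further proteasome genes (PSMB10, the activators PSME1, PSME2 and PSME3, POMP, PSMB5, PSMB6 and PSMB7), edgeR called 0 with either hairpin. At an unadjusted p under 0.05 there were 1 higher with FOSL1sh3 and 3 higher with FOSL1sh10, and DESeq2 called 0 and 1, the activator subunit PSME1. Of all tested genes 26.9% and 19.4% passed that unadjusted p in either direction (edgeR).

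Of 11 listed class I-like molecules and NKG2D ligands, 7 were tested and 1, the NKG2D ligand RAET1L, fell with FOSL1sh3, at 2.07, 2.36 and 2.20 CPM in GFPsh and 0.821, 0.433 and 0.255 CPM with FOSL1sh3. The log2 fold change was -2.05 (SE 0.471, adjusted p = 0.0104 by edgeR), from 8, 3 and 2 counts in the FOSL1sh3 libraries. At an unadjusted p under 0.05 there were 1 higher and 2 lower with FOSL1sh3, and 0 higher and 2 lower with FOSL1sh10. The share of all tested genes passing in either direction was 26.9% with FOSL1sh3 and 19.4% with FOSL1sh10. DESeq2 called 2 lower with FOSL1sh3, RAET1L and MICB, and 0 with FOSL1sh10. By edgeR the MICB value with FOSL1sh3 was -0.63 (adjusted p = 0.0557). RAET1L was 2.47 higher with FOSL1sh10 than with FOSL1sh3 on the log2 scale. MR1, which presents vitamin B metabolites to MAIT cells, and FCGRT, the neonatal Fc receptor, were lower with FOSL1sh10 than with FOSL1sh3, by log2 differences of -0.80 and -0.88 (edgeR, adjusted p = 0.0144 and 0.0173). The MR1 call was lost without FOSL1sh10 replicate 3, and the FCGRT call without that library, FOSL1sh10 replicate 1 or FOSL1sh3 replicate 1, with an adjusted p of up to 0.0681 and 0.0795. CD1D and ULBP3 had 0 counts in every library, which allows up to 0.283 to 0.435 CPM.

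Of 16 transcription factors and cofactors known to act on class I promoters, 15 were tested. With FOSL1sh10, IRF1, which binds interferon-responsive elements, rose from 57.5, 70.0 and 54.9 CPM in GFPsh to 103, 103 and 99.95 CPM, with 63.2, 67.2 and 61.3 CPM in the FOSL1sh3 libraries. Its log2 fold change was 0.75 with FOSL1sh10 (SE 0.135, adjusted p = 0.00217) and 0.07 with FOSL1sh3 (95% interval -0.19 to 0.34), and the hairpins differed by 0.68 (SE 0.135, adjusted p = 0.00327), by edgeR.

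NFKB1, an NF-kB subunit, rose with FOSL1sh3 (log2 0.65, SE 0.176, adjusted p = 0.0239 by edgeR), a call lost without GFPsh replicate 1 or 2 or FOSL1sh3 replicate 3 (adjusted p up to 0.107). With FOSL1sh10 its value was 0.52 (adjusted p = 0.101). NFYC, a subunit of the factor that binds CCAAT boxes, fell with both hairpins, with a log2 value of -0.49 for FOSL1sh3 (SE 0.137, adjusted p = 0.029) and -0.53 for FOSL1sh10 (SE 0.137, adjusted p = 0.028), by edgeR. Its partner NFYA was higher with FOSL1sh10 than with FOSL1sh3 (0.77, edgeR adjusted p = 0.0467). The NFYC calls were lost in 7 and 8 of the 17 other settings and the NFYA call in 11. Leaving out any 1 GFPsh library ended both NFYC calls, and leaving out any 1 FOSL1sh10 library ended the NFYA call, with an adjusted p of up to 0.12, 0.14 and 0.167. NLRC5, the class I transactivator, was at 4.69, 4.05 and 6.06 CPM in GFPsh and 7.70, 9.05 and 9.37 CPM with FOSL1sh10, a log2 difference of 0.82 that was not called (edgeR, adjusted p = 0.0716).

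The cytokines known to induce the pathway had few counts or none. TNF had 0, 2 and 0 counts in GFPsh, 0, 4 and 3 with FOSL1sh3, and 10, 16 and 21 with FOSL1sh10, where it was called higher (edgeR, adjusted p = 0.00606). IFNG, IFNE, IFNK, IFNL1 and IFNL3 had 0 counts in every library, which again allows up to 0.283 to 0.435 CPM. IFNB1 had 1 count, in FOSL1sh10 replicate 3, and IFNL2 had 2, in FOSL1sh10 replicate 2. Among 10 receptors and kinases of interferon and TNF signalling, 8 were tested, and edgeR and DESeq2 called 0 against GFPsh with either hairpin. An unadjusted p under 0.05 was reached by 2 with FOSL1sh3 and 0 with FOSL1sh10, where 26.9% and 19.4% of all tested genes passed. TNFRSF1A, the main TNF receptor, was lower with FOSL1sh10 than with FOSL1sh3 (-0.50, edgeR adjusted p = 0.0282), a call lost without replicate 2 or 3 of either hairpin (adjusted p up to 0.154).

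The class I genes other than B2M, which is on chromosome 15, lie in the major histocompatibility complex on the short arm of chromosome 6. In the hg38 annotation of the files, the heavy chains HLA-F (chr6:29722775-29738528) and HLA-E (chr6:30489467-30494205) are on the plus strand. HLA-C (chr6:31268749-31272130) and HLA-B (chr6:31269491-31357188, including transcripts that read through into HLA-C) are on the minus strand. TAP2 (chr6:32821833-32838780), PSMB8 (chr6:32840717-32844703) and TAP1 (chr6:32845209-32853978) are also on the minus strand, and PSMB9 (chr6:32844136-32859585) is on the plus strand. B2M is at chr15:44711477-44718877, on the plus strand. From HLA-F to TAPBP (chr6:29722775-33314387 in hg38), 94 other genes were tested. With FOSL1sh10, 10 of them (10.6%) rose, among them TAPBP, TNF and the class II genes HLA-DMA, HLA-DPA1, HLA-DRA and HLA-DRB1, and 4 (4.26%) fell. With FOSL1sh3, 5 (5.32%) rose and 1 (1.06%) fell. Of all tested genes, 3.13% were called higher and 2.15% lower with FOSL1sh10, and 5.21% and 5.65% with FOSL1sh3. The median log2 fold change of these neighbours was 0.0434 with FOSL1sh10 and 0.132 with FOSL1sh3, beside 0.49 and 0.10 for the 9 class I genes.

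To summarise the 9 genes in each library, their log2 CPM values were centred on each gene's mean and averaged. The average was -0.24, -0.36 and -0.15 in GFPsh, 0.0045, -0.14 and -0.0093 with FOSL1sh3, and 0.25, 0.21 and 0.43 with FOSL1sh10. Among 9958 genes with enough counts, the 8 with the highest Pearson r to this average over the 9 libraries were IL1B (0.980), SERPINA1 (0.974), FPR1 (0.967), UBE2J2 (0.963), TMPRSS2 (0.951), ELF3 (0.947), SAA2 (0.945) and IFI35 (0.943). The 9 libraries share groups, so these values are a description of a common order and carry no test. IL1B and SAA2 encode an inflammatory cytokine and an acute phase protein, ELF3 an epithelial transcription factor and IFI35 an interferon-induced protein. SAA2 was at 6.90, 9.23 and 10.3 CPM in GFPsh, 23.3, 16.4 and 26.0 CPM with FOSL1sh3 and 93.0, 102 and 93.3 CPM with FOSL1sh10, and a near-identical copy, SAA1, makes its count uncertain.

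**Figure D5:**
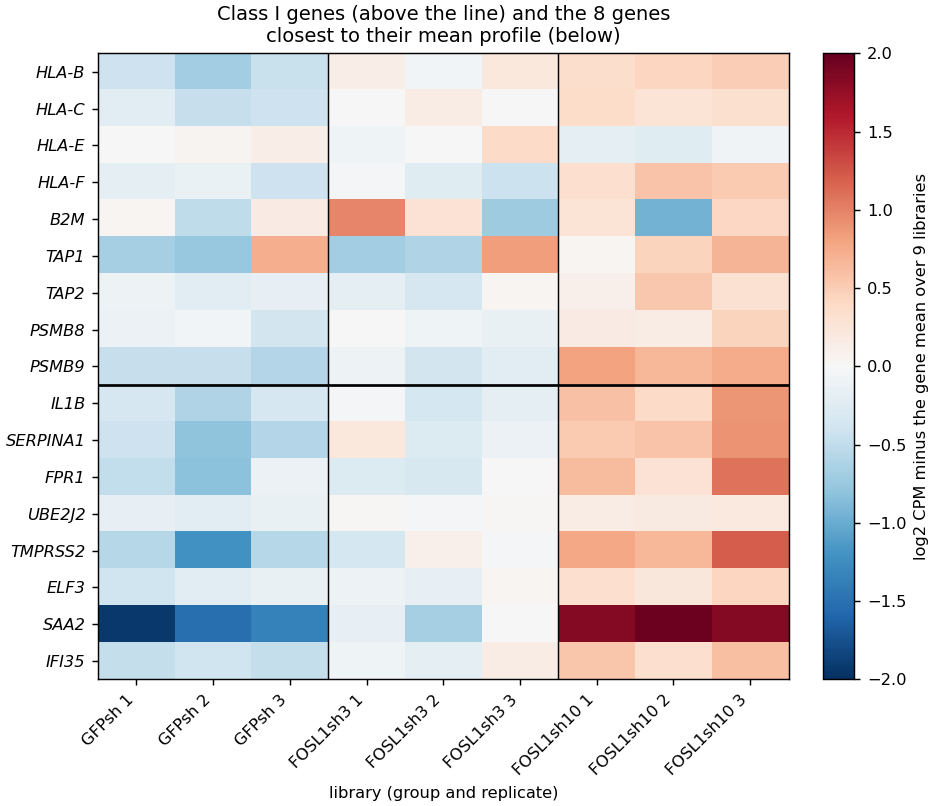
Log2 CPM minus the gene's mean over 9 libraries, for the 9 class I genes above the line and the 8 genes closest to their average below it, with libraries in columns by group. The colour runs from blue (low) to red (high), and most rows change from blue in GFPsh to red with FOSL1sh10. HLA-E and B2M do not, and TAP1 is red in replicate 3 of every group.

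EGI-1 is labelled as a cholangiocarcinoma line, and all 9 biliary epithelial markers were measured, summing to 11417 to 12279 CPM in GFPsh, 12847 to 14176 CPM with FOSL1sh3 and 11605 to 13502 CPM with FOSL1sh10. KRT18 and KRT19 made up most of these sums, with GFPsh means of 3907 and 4149 CPM. Against GFPsh, KRT7 was called higher with FOSL1sh3 (log2 0.46) and with FOSL1sh10 (0.71), by edgeR, and the other 8 were not called. EPCAM and SOX9 were called higher and KRT19 lower with FOSL1sh10 than with FOSL1sh3. Class I and antigen processing genes are high in leukocytes. The 13 leukocyte markers summed to 4.05 to 5.93 CPM in GFPsh, 6.88 to 7.93 CPM with FOSL1sh3 and 6.42 to 9.88 CPM with FOSL1sh10, higher in every hairpin library than in every control library. CD14 made up most of these sums, with means of 3.82, 6.11 and 7.01 CPM in the same order. FCER1G went the other way, with means of 0.557, 0.111 and 0.119 CPM. The defining T and B cell markers CD3E and MS4A1 had 0 counts throughout, PTPRC had 2 counts in 1 library, and 1 of the 13, CD14, passed the filter and was not called. The 8 fibroblast and endothelial markers summed to 2.93 to 4.74, 4.31 to 8.02 and 8.13 to 9.58 CPM in the same order, with DCN, LUM and PDGFRB at 0. The part of such cells in the class I differences was not tested. These are bulk libraries, in which more cells of a kind and more RNA per cell cannot be told apart.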

How the data were processed

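RNA from 9 EGI-1 libraries was measured by low-input 3′ sequencing (MARS-seq, per the labels' protocols). The authors deposited raw counts per gene, made per the file headers with featureCounts 1.6.0 on GENCODE 28 exons with no strand option set. Nor was the option set that counts a read for several genes, so reads in overlapping exons were left out. Per the submitters' processing notes, FastQC 0.11.5, STAR 2.5.3a and hg38 were used, and edgeR and limma were named. Collapsing of molecular identifiers is not described in the sources used here. Limits for 0 counts cover counting error only.

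Tests used edgeR 4.0.16 under R 4.3.3, with its default filter (minimum count 10, minimum total 15), TMM scaling, the quasi-likelihood test in 1 fit of 9 libraries with group as the only term, and Benjamini-Hochberg adjustment over 12814 genes. Standard errors (SE) divide the absolute log2 fold change by the root of the F statistic, and 95% intervals are 1.96 SE. The script was tested on simulated data. DESeq2 1.42.0 was an alternative, with other scaling, filters, sample sets, a replicate block and each library left out.

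Named were the 9 class I genes, FOSL1, pathway genes past the test or at 0, and the 8 genes of closest profile. The class I genes and lists were chosen with earlier results of these data known. Symbols matched 57754 of 58381 identifiers. Overlaps came from GENCODE 29, and promoters from RefSeq. Some results are not reported here.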

Additional observations from a re-analysis of the deposited data

Results flagged for a closer look

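For 3 class I genes the effect of FOSL1sh10 and that of FOSL1sh3 against the same GFPsh libraries differed by the test of the difference itself (edgeR). The log2 difference, FOSL1sh10 minus FOSL1sh3, was 0.703 for HLA-F (adjusted p = 0.00406), 0.479 for TAP2 (adjusted p = 0.0374) and 0.969 for PSMB9 (adjusted p = 0.000151). Each FOSL1sh10 library was above each FOSL1sh3 library for all 3 genes, a pattern found for 15.9% of all tested genes. FOSL1 itself was at 62.5 ± 15.2 CPM (SD, n = 3) with FOSL1sh3 and 64.6 ± 6.97 CPM (SD, n = 3) with FOSL1sh10.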

How the results depend on the processing

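Over 17 alternatives, 612 log2 fold changes of the 9 class I genes were recomputed. Of these, 556 kept their direction and side of the threshold, 22 lost a call, 12 gained one, 22 uncalled values changed sign, and 0 called values reversed. For the mean of both hairpins, fitting only the groups compared is the main fit again, so those 9 values could not change. Class I genes called with FOSL1sh3 went from 2 to 1 with library totals alone, with no low-count filter, with only the groups compared, with a replicate block, without the trend on GC content, and without any 1 library (range 1 to 1). The GC alternative was added after seeing the data. Called between the hairpins were 6 genes with library totals and 5 without the GC trend, from 3, and 2 to 3 without 1 library. With FOSL1sh10, 6 were called with library totals (TAP2 and PSMB8 gained) and 5 without the GC trend (TAP2 gained), from 4. Over all genes, library totals gave 839 calls with FOSL1sh10 (676 with TMM scaling) and 2192 between the hairpins (1633). Without 1 library, 4 to 5 were called with FOSL1sh10 and 2 to 3 for both hairpins, where HLA-C was lost without GFPsh replicate 2 or 3.

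Over all genes, calls without 1 library ranged from 599 to 1803 with FOSL1sh3 (1392 with all), 347 to 919 with FOSL1sh10 (676), 312 to 1002 for both (797) and 712 to 1920 between the hairpins (1633). With only the groups compared, 1124 genes were called with FOSL1sh10. The cause was not tested. With library totals the share called higher moved from 48% to 34% with FOSL1sh3, from 59.3% to 77.5% with FOSL1sh10 and from 54.9% to 82.4% between the hairpins, and the medians of all genes shifted to -0.0614, 0.105 and 0.171. Replicate numbers did not pair libraries: same-number correlations ran from -0.116 to 0.183. In 4 of 9 look-ups of a library in another group, its own number correlated best. The replicate block gave 1, 4, 3 and 3 class I calls in the 4 comparisons. Without 1 library, the PSMB10 to PSMB7 difference with FOSL1sh3 ranged from -0.158 to 0.735, and the other 5 ratio differences kept their sign. Depth limits genes of few counts, such as PSMB10, TNF and RAET1L.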

Other observations

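Class I genes differed in how tightly their replicates agreed. The pooled within-group SD of log2 CPM was 0.0902 for HLA-C, 0.0974 for PSMB9 and 0.125 for HLA-B, below that of most tested genes (percentiles 2.19, 3.12 and 8.23). It was 0.686 for B2M and 0.702 for TAP1, at percentiles 96.4 and 96.9. Among tested genes of like count the percentiles were 7.32 for HLA-C, 7.29 for PSMB9, 27.2 for HLA-B, 99.1 for B2M and 99.5 for TAP1.

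CD74, the class II invariant chain, is no class I gene and was chosen as a reference after its values were seen. It was at 29.9, 27.6 and 33.7 CPM in GFPsh, 31.0, 31.7 and 23.9 CPM with FOSL1sh3, and 119, 161 and 145 CPM with FOSL1sh10. The 3 FOSL1sh10 libraries stood apart from the other 6, and the log2 fold change with FOSL1sh10 was 2.22 (SE 0.16, adjusted p = 1.18e-07 by edgeR).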
